A study of Mus musculus with 9 samples.

Results

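The 9 MAP kinase genes described here are Mapk3 (which encodes ERK1), Mapk6 (ERK3), Mapk7 (ERK5), Mapk8 (JNK1), Mapk9 (JNK2), Mapk11 (p38 beta), Mapk12 (p38 gamma), Mapk13 (p38 delta) and Mapk14 (p38 alpha). They were chosen by gene symbol, and each had a row among the 55274 gene identifiers measured. The 9 RNA libraries came from cultured mouse marrow cells, 3 of them expressing NRASG12D, 3 expressing NUP98-NSD1 and 3 expressing NUP98-NSD1+NRASG12D. All donors were young adult female C57BL/6J mice given 5-fluorouracil at 150 mg/kg, which spares non-dividing immature cells. Marrow was taken 4 days later, stimulated for 48 h with human IL-6, murine IL-3 and murine SCF, and infected with MSCV retroviruses, in which the viral promoter drives the oncogene and a fluorochrome. NRASG12D is an activated form of the RAS protein NRAS and was carried with BFP. NUP98-NSD1, carried with GFP, joins part of the nuclear pore protein NUP98 to the histone methyltransferase NSD1 and occurs in acute myeloid leukemia. Cells were sorted for the fluorochromes and expanded, and none of the 9 libraries is of untransduced or empty-vector cells. The study describes its NRASG12D cultures as mostly mast cells that declined in number. It is not stated whether libraries of a group came from separate mice or transductions, so the p-values measure only the spread between these samples.

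MAP kinases are the last kinases of 3-step cascades. A MAP3K activates a MAP2K, and the MAP2K phosphorylates the MAP kinase on its activation loop. RAS proteins feed a cascade that runs through the MEK kinases to the classical ERK kinases, ERK1 among them. The p38 and JNK kinases are best known for responses to stress and inflammatory cytokines, which in myeloid cells include cytokine production. ERK5 has a cascade of its own, and ERK3 is an atypical member whose loop carries a single phosphorylated residue. These are signalling enzymes, and the values below are of their transcripts, not of protein or phosphorylation.

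The activation loop is the stretch that sets the classes apart, so it is shown for each member. The letters are coding sequence read 5′ to 3′ from the GENCODE M21 transcripts on GRCm38, with the 3 codons of the loop's phosphorylation motif in capitals. In the ERK genes Mapk3 and Mapk7 the middle codon is GAG, in the JNK genes it is CCT or CCC, and in the 4 p38 genes it is GGA or GGC. Mapk6 differs from all others in its first and last codons.
Mapk3: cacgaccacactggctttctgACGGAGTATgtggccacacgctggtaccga
Mapk7: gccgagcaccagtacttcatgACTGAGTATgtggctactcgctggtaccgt
Mapk6: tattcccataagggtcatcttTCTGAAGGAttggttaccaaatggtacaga
Mapk8: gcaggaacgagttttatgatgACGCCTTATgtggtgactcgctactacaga
Mapk9: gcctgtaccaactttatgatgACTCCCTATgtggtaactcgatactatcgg
Mapk11: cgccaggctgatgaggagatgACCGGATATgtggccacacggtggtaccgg
Mapk12: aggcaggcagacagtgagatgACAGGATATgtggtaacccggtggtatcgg
Mapk13: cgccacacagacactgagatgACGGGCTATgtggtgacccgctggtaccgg
Mapk14: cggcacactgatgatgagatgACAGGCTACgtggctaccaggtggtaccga

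Each of these stretches is exonic, and 8 of the 9 lie within a single exon. On GRCm38 they are at chr7:126763437-126763487 (Mapk3, plus strand), chr11:61491401-61491451 (Mapk7, minus strand), chr14:33392982-33393032 (Mapk8, minus strand) and chr11:49872809-49872859 (Mapk9, plus strand). That of Mapk6 is split by an intron between chr9:75395616-75397590 on the minus strand. The p38 genes lie in 2 neighbouring pairs. Mapk14 and Mapk13 follow each other on the plus strand, with loops at chr17:28728378-28728428 and chr17:28776323-28776373 and 20890 bases between the genes. Mapk12 and Mapk11 are on the minus strand with loops at chr15:89134655-89134705 and chr15:89145845-89145895, and 1782 bases separate the genes. The reads were 50 bases long, and none of the 50-base stretches of Mapk13, Mapk14, Mapk11 or Mapk9 transcripts occurred in a transcript of another gene. Mapk6 and Mapk12 are less certain. Of the Mapk6 stretches, 5.03% also occurred in Gm49037, a gene model that overlaps Mapk8 on the same strand and was itself listed at 7.4 to 24 FPKM. Of the Mapk12 stretches, 2.1% occurred in transcripts of other genes, Ilf2 first. For Mapk8 itself that share was 0.11%.

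Levels are given as FPKM, in which sequenced fragments are divided by transcript length and library depth, which allows genes of different length to be set side by side. From the steps between low values the libraries held an estimated 2.35e+07 to 3.7e+07 fragments. Differences are on the log2(FPKM + 1) scale, which understates changes of low genes, and were tested with limma over the 13493 genes with at least 1 FPKM in 3 or more libraries, with Benjamini-Hochberg adjustment and a threshold of 0.05. Of the 9 members, 7 passed this filter and Mapk11 and Mapk12 did not. As a check of the labels, mouse Nras was listed at 348 to 479 FPKM in the NRASG12D libraries, 47.7 to 51.2 in the NUP98-NSD1 libraries and 245 to 701 in the NUP98-NSD1+NRASG12D libraries. This check sets only the NUP98-NSD1 libraries apart. NRASG12D and NUP98-NSD1+NRASG12D libraries overlapped in Nras, and the fusion itself was not checked. The groups also differed in cell type markers. The 10 mast cell markers summed to 30030 to 32639 FPKM in NRASG12D libraries, 26838 to 31852 in NUP98-NSD1 libraries and 744 to 4336 in NUP98-NSD1+NRASG12D libraries, but Cpa3 was listed at 0 in all 3 NRASG12D libraries, and an exact 0 in FPKM can be a failed estimate. Without Cpa3 the other 9 summed to 30030 to 32639, 13680 to 17474 and 465 to 2515 FPKM. By this sum, made mostly by Cma1 and Tpsb2, NRASG12D libraries lay above NUP98-NSD1 libraries. The 5 granulocyte precursor markers summed to 26.4 to 30.5, 1223 to 5328 and 3716 to 12587 FPKM in the same order. The 6 late neutrophil markers summed to 3 to 6.8, 229 to 527 and 866 to 3337 FPKM, and the 7 monocyte and macrophage markers to 21 to 25.6, 430 to 858 and 1688 to 4244 FPKM. In the same order, the sums were 406 to 447, 858 to 1603 and 29.2 to 487 FPKM for 3 basophil, 0 to 0.0785, 5.33 to 29.8 and 2.93 to 218 for 3 eosinophil, 1.78 to 4.24, 26.2 to 63.2 and 3.55 to 37.5 for 4 erythroid, 479 to 563, 242 to 301 and 81 to 1241 for 4 megakaryocyte and 307 to 341, 407 to 495 and 9.63 to 132 for 3 progenitor markers. Genes within a list could go opposite ways. Itga2b, at 479 to 558 FPKM, made most of the NRASG12D megakaryocyte sum. It was lower past the threshold in NUP98-NSD1 than in NRASG12D cells, while Pf4, Gp9 and Ppbp were higher. Of the basophil genes, Cd200r3 was lower and Mcpt8 and Prss34 were higher in that comparison. Of the 10 mast cell genes, 5 were called lower there and 3 higher, namely Cpa3, Hdc and Mcpt4. Hdc was at 51.8 to 169 FPKM with the fusion alone, against 1.6 to 8.72 in NRASG12D libraries. For Mcpt4 these ranges were 415 to 491 and 33.2 to 101 FPKM. Ltf, Camp and Retnlg of the neutrophil list were at 0 in all NRASG12D libraries. The 3 B cell, 3 T cell and 3 stroma markers never summed above 0.777 FPKM. A difference between groups is therefore also one between cultures of different cell make-up, and in bulk RNA fewer cells of a type and less RNA per cell cannot be told apart.

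Among the 9 genes, the ERK genes, Mapk9 and Mapk14 were expressed in every library, Mapk8 was lower, and Mapk11 and Mapk12 were close to the limit of detection. Mapk13 ran from barely detected in NRASG12D libraries to 36.7 FPKM in 1 NUP98-NSD1+NRASG12D library. By group mean, Mapk6 came first in each group, at 18.5 ± 3.84 FPKM (SD, n = 3) in NRASG12D cells, 29 ± 2.44 with NUP98-NSD1 and 41.1 ± 4.93 with NUP98-NSD1+NRASG12D. In NRASG12D cells Mapk9, Mapk3, Mapk7, Mapk14 and Mapk8 followed, and Mapk6, Mapk9 and Mapk3 overlapped with their neighbours in this order. Mapk13 came last there, at 0.178 ± 0.0994 FPKM, and overlapped with Mapk12. In NUP98-NSD1 cells it ranked 7 of 9, above Mapk11 and Mapk12 without overlap. In NUP98-NSD1+NRASG12D cells it ranked 3 of 9 with a mean of 18.1 ± 16.2 FPKM, but overlapped with Mapk7 before it and Mapk14 after it. That rank rests on replicate 3, at 36.7 FPKM. In replicates 1 and 2 Mapk13 was at 8.96 and 8.5 FPKM, below Mapk6, Mapk7, Mapk14, Mapk3 and Mapk9. The plot of FPKM by library shows these shifts gene by gene.

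**Figure D1:**
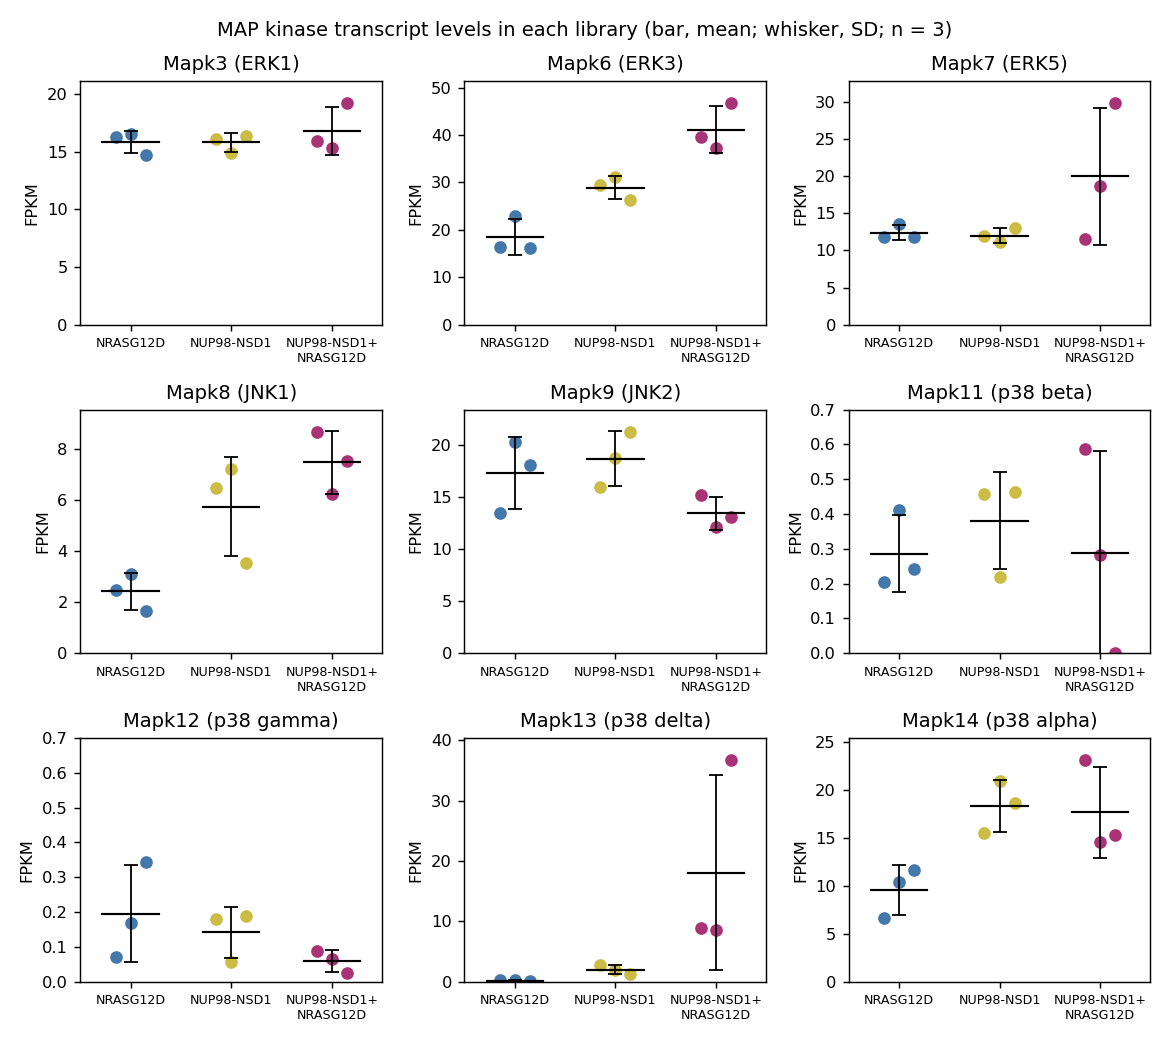
FPKM (linear axis from 0, own scale per panel) of the 9 MAP kinase genes in the 9 libraries, 3 per group; points are libraries in replicate order, the bar is the mean and the whisker the SD (n = 3). Mapk13 reaches 36.7 FPKM in 1 NUP98-NSD1+NRASG12D library and at most 0.247 in NRASG12D libraries, Mapk6 steps up through the 3 groups, and Mapk3 stays between 14.7 and 19.2.

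Among the p38 genes, Mapk13 was higher in both groups with NUP98-NSD1 than in NRASG12D cells, Mapk14 was higher by a smaller difference, and Mapk11 and Mapk12 were nearly undetected. p38 delta, the product of Mapk13, is one of the p38 kinases with a narrower tissue range, and Mapk13 is the member the study itself named from these samples, so its direction here is not independent evidence. Mapk13 was listed at 0.223, 0.247 and 0.0643 FPKM in NRASG12D replicates 1 to 3. In NUP98-NSD1 replicates 1 to 3 it was at 2.72, 1.97 and 1.27 FPKM, and in NUP98-NSD1+NRASG12D replicates at 8.96, 8.5 and 36.7 FPKM. The 3 groups did not overlap in any pair, and replicate 3 of NUP98-NSD1+NRASG12D stood far above the other two. The lowest NUP98-NSD1+NRASG12D library was 34.4 times the highest NRASG12D library and 3.13 times the highest NUP98-NSD1 library, and the lowest NUP98-NSD1 library was 5.13 times the highest NRASG12D library. The NRASG12D values rest on few fragments, an estimated 2 to 4 in replicate 3 and 8 to 26 in the other two, depending on which full-length transcript is assumed. Mapk13 passed the filter on low values through the NUP98-NSD1 and NUP98-NSD1+NRASG12D libraries only.

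Mapk13 was higher in NUP98-NSD1 than in NRASG12D cells by 1.32 ± 0.20 (log2, SE; limma adjusted p = 0.00258) and in NUP98-NSD1+NRASG12D than in NRASG12D cells by 3.70 ± 0.52 (adjusted p = 0.00191). In NUP98-NSD1+NRASG12D cells relative to NUP98-NSD1 the difference was 2.38 ± 0.54 (adjusted p = 0.0427), close to the threshold. This last call was lost without NUP98-NSD1 replicate 1, 2 or 3 (adjusted p = 0.0935, 0.131 and 0.157), and it held, at 1.73, without the high replicate 3 of NUP98-NSD1+NRASG12D (adjusted p = 0.0339). With a pseudocount of 0.1 in place of 1 the 3 differences were 2.92, 5.75 and 2.83. In NUP98-NSD1+NRASG12D replicate 3, where Mapk13 was highest, Nras was highest as well, at 701 FPKM against 245 and 262, and so was the late neutrophil sum, at 3337 against 866 and 2634. The part of these in the Mapk13 level was not tested.

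Mapk14 encodes p38 alpha, the p38 kinase present in nearly all cells. It was listed at 6.63, 10.4 and 11.6 FPKM in NRASG12D replicates 1 to 3 and at 15.5, 20.9 and 18.6 FPKM in NUP98-NSD1 replicates. In NUP98-NSD1+NRASG12D replicates it was at 23.1, 14.6 and 15.3 FPKM. NRASG12D libraries lay below all others, while the other groups overlapped. Mapk14 was higher than in NRASG12D cells by 0.90 ± 0.20 in NUP98-NSD1 cells (limma adjusted p = 0.00951) and by 0.83 ± 0.26 in NUP98-NSD1+NRASG12D cells (adjusted p = 0.042). The second call was lost in 5 of 6 fits that left out a library, the exception being NUP98-NSD1+NRASG12D replicate 2, and both were lost after median-ratio scaling between libraries (adjusted p = 0.0574 and 0.0716). In NUP98-NSD1+NRASG12D cells relative to NUP98-NSD1 the difference was -0.07 ± 0.22 (adjusted p = 0.909), and it turned to 0.02 after median-ratio scaling.

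Mapk11 and Mapk12, which encode p38 beta and p38 gamma, never reached 0.6 FPKM. Mapk11 ran from 0.206 to 0.412 FPKM in NRASG12D libraries, 0.219 to 0.464 in NUP98-NSD1 libraries and 0 to 0.586 in NUP98-NSD1+NRASG12D libraries, and was at 0 in NUP98-NSD1+NRASG12D replicate 3, where 3 fragments would give 0.0544 FPKM. Mapk12 ran from 0.0708 to 0.345, 0.0568 to 0.19 and 0.0248 to 0.087 FPKM, an estimated 1 to 13 fragments per library. Mapk11 had an estimated 12 to 40 fragments in the other 8 libraries. The groups overlapped for both genes, and neither was tested, since both fell below the filter.

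As a share of the summed FPKM of the 4 p38 genes, Mapk13 made up 3.13, 2.21 and 0.527% in NRASG12D replicates, 14.4, 8.52 and 6.17% in NUP98-NSD1 replicates and 27.4, 36.2 and 70.5% in NUP98-NSD1+NRASG12D replicates. Mapk14 held most of the rest, from 92.6 to 94.7% in NRASG12D cells to 29.4 to 70.5% in NUP98-NSD1+NRASG12D cells. The sum itself ran from 7.14 to 12.2 FPKM in NRASG12D libraries, from 18.9 to 23.2 with NUP98-NSD1 alone and from 23.5 to 52.1 with both oncogenes. The stacked plot of the p38 genes shows Mapk14 making most of the step from NRASG12D to NUP98-NSD1 cells. By group mean, Mapk13 made that to NUP98-NSD1+NRASG12D cells, but this step was uneven. The sum was 32.7, 23.5 and 52.1 FPKM in NUP98-NSD1+NRASG12D replicates 1 to 3, so replicate 2 barely exceeded the highest NUP98-NSD1 library. In replicate 1 Mapk14, at 23.1 FPKM, also lay above its NUP98-NSD1 values.

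**Figure D2:**
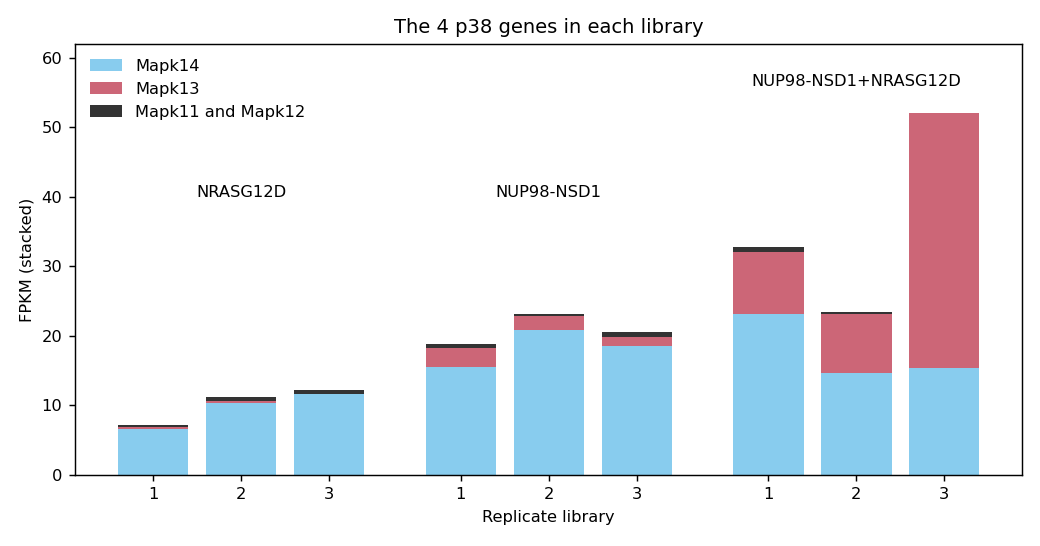
Stacked FPKM (linear axis from 0) of Mapk14, Mapk13 and the sum of Mapk11 and Mapk12 in each of the 9 libraries, by replicate number within a group. Mapk13 is barely visible in NRASG12D libraries (at most 3.13% of the stack) and makes up 70.5% in NUP98-NSD1+NRASG12D replicate 3; Mapk11 and Mapk12 are a thin layer throughout.

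To ask whether Mapk13 differed from the other p38 genes, the log2 ratio of Mapk13 to each, with 1 FPKM added to both, was compared between groups with two-sided exact permutation tests. With 3 libraries against 3 the smallest exact p is 0.1, so no test of this design could pass 0.05. The log2 ratio of Mapk13 to Mapk14 was -2.64, -3.19 and -3.56 in NRASG12D replicates, -2.15, -2.88 and -3.11 in NUP98-NSD1 replicates, and -1.27, -0.72 and 1.21 in NUP98-NSD1+NRASG12D replicates. It was thus higher in NUP98-NSD1+NRASG12D cells without overlap, by 2.87 against NRASG12D and by 2.46 against NUP98-NSD1 cells (each exact p = 0.1, adjusted p = 0.113 over 9 tests). NUP98-NSD1 and NRASG12D cells overlapped in this ratio and differed by 0.41 (exact p = 0.4, adjusted p = 0.4), but by 1.95 without overlap at a pseudocount of 0.1 (exact p = 0.1). Mapk11 and Mapk12 lay so far below the 1 FPKM added that the Mapk13 ratios to them mostly restate the Mapk13 level itself, so their differences of 1.22 to 3.87 (each exact p = 0.1, adjusted p = 0.113) say little of Mapk11 or Mapk12.

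The RefSeq promoter table on GRCm38 has 1 entry for Mapk13, shown here because Mapk13 is the member with the widest range of levels. The 250 bases before its start, chr17:28769067-28769316 on the plus strand, have a GC content of 76%, against a median of 52.4% over 32851 promoters. Capitals mark the letters GGGCGG, a GC box, found 4 times on either strand. Of all promoters, 32.7% hold such a match within these 250 bases. Neither trait is particular to Mapk13 among the members. Mapk11, nearly undetected here, has 68% GC and 4 GC boxes in its window. Mapk8 has entries at 79.2% with 7 GC boxes and at 33.2% with 0.
Mapk13: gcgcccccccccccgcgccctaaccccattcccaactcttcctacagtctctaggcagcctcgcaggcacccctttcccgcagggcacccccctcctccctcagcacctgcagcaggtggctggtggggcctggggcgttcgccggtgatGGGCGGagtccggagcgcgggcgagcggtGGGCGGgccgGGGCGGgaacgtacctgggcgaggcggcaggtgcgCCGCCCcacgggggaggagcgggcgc
The motifs TGANTCA (AP-1, in 6.75% of promoters), TTNNGNAA (C/EBP, 36.8%), CCGGAAG (ETS, 6.91%), GAGGAAG (PU.1, 10.6%) and TGACGTCA (CRE, 1.55%) were searched on both strands and are not in this window, which says nothing of binding by these factors.

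Of the ERK genes, Mapk6 was higher in both groups with NUP98-NSD1 than in NRASG12D cells, while Mapk3 did not pass the test in any comparison. ERK1, the product of Mapk3, is an end point of the route from RAS through the MEK kinases. Mapk3 was listed at 16.3, 16.5 and 14.7 FPKM in NRASG12D replicates, 16.1, 14.9 and 16.4 in NUP98-NSD1 replicates and 15.9, 15.3 and 19.2 in NUP98-NSD1+NRASG12D replicates. The 3 groups overlapped. Its differences from NRASG12D cells were 0.00047 ± 0.09 in NUP98-NSD1 cells (limma adjusted p = 0.997) and 0.08 ± 0.15 in NUP98-NSD1+NRASG12D cells (adjusted p = 0.712), and after median-ratio scaling they were -0.32 (adjusted p = 0.0296) and -0.15 (adjusted p = 0.478). Of 5 MAP kinase genes outside the 9, 2 were tested, and 0 passed in any comparison by limma, also at an unadjusted p under 0.05.

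ERK3, the product of Mapk6, is known as an unstable kinase that binds MK5, the product of Mapkapk5. Mapk6 was listed at 16.3, 22.9 and 16.2 FPKM in NRASG12D replicates, 29.4, 31.1 and 26.3 in NUP98-NSD1 replicates and 39.5, 37.2 and 46.7 in NUP98-NSD1+NRASG12D replicates. No pair of groups overlapped. It was higher than in NRASG12D cells by 0.63 ± 0.15 in NUP98-NSD1 (limma adjusted p = 0.0108) and 1.12 ± 0.19 in NUP98-NSD1+NRASG12D cells (adjusted p = 0.0039). The first of these calls was lost after median-ratio scaling, at 0.31 (adjusted p = 0.0713). The difference of 0.49 ± 0.15 in NUP98-NSD1+NRASG12D cells relative to NUP98-NSD1 did not pass (adjusted p = 0.105). Gm49037, which shares sequence with Mapk6, was listed at 7.4 to 11.4, 13.8 to 15.6 and 19.3 to 24 FPKM in the same order of groups, and its part in the Mapk6 values was not tested.

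Mapk7 encodes ERK5, which is activated by MEK5, the product of Map2k5, and phosphorylates MEF2 factors. It was listed at 11.8, 13.6 and 11.8 FPKM in NRASG12D replicates, 11.9, 11.1 and 13 in NUP98-NSD1 replicates, and 11.5, 18.7 and 29.8 in NUP98-NSD1+NRASG12D replicates. NUP98-NSD1+NRASG12D cells spanned 11.5 to 29.8 FPKM and overlapped with both other groups. The difference from NRASG12D cells was 0.55 ± 0.32 (limma adjusted p = 0.199) and that from NUP98-NSD1 cells 0.60 ± 0.32 (adjusted p = 0.318). Without NUP98-NSD1+NRASG12D replicate 1 both passed, at 0.88 (adjusted p = 0.024) and 0.92 (adjusted p = 0.0395). NUP98-NSD1 and NRASG12D cells differed by -0.05 ± 0.10 (adjusted p = 0.73), and by -0.36 after median-ratio scaling (adjusted p = 0.0363). Mfap4, which overlaps Mapk7 on the other strand, never exceeded 0.027 FPKM.

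Of the JNK genes, Mapk8 was higher in both groups with NUP98-NSD1 than in NRASG12D cells, and Mapk9 did not pass the test in any comparison. Mapk8, which encodes JNK1, was listed at 2.5, 3.12 and 1.66 FPKM in NRASG12D replicates, 6.48, 7.22 and 3.54 in NUP98-NSD1 replicates and 8.69, 6.24 and 7.52 in NUP98-NSD1+NRASG12D replicates. NRASG12D libraries were the lowest, without overlap. Mapk8 was higher by 0.95 ± 0.26 in NUP98-NSD1 (limma adjusted p = 0.0198) and 1.32 ± 0.22 in NUP98-NSD1+NRASG12D cells (adjusted p = 0.00405). The first call was lost without NRASG12D replicate 3, NUP98-NSD1 replicate 1 or NUP98-NSD1 replicate 2 (adjusted p = 0.069, 0.0677 and 0.0718). The difference of 0.37 ± 0.26 in NUP98-NSD1+NRASG12D cells relative to NUP98-NSD1 did not pass (adjusted p = 0.48).

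Mapk9 encodes JNK2 and was the more abundant JNK transcript in each library. It was listed at 13.5, 20.3 and 18.1 FPKM in NRASG12D replicates, 16, 18.8 and 21.3 in NUP98-NSD1 replicates and 15.2, 12.1 and 13.1 in NUP98-NSD1+NRASG12D replicates. NUP98-NSD1+NRASG12D libraries lay below NUP98-NSD1 libraries without overlap, a difference of -0.44 ± 0.17 that did not pass (limma adjusted p = 0.173). Against NRASG12D cells the difference was -0.33 ± 0.19 (adjusted p = 0.216), and -0.55 after median-ratio scaling (adjusted p = 0.0404). NUP98-NSD1 and NRASG12D cells differed by 0.12 ± 0.17 (adjusted p = 0.582), which became -0.20 after that scaling. Mapk8 made up 8.43 to 15.7% of the summed JNK transcripts in NRASG12D libraries, 14.3 to 28.8% in NUP98-NSD1 libraries and 34.1 to 36.5% in NUP98-NSD1+NRASG12D libraries, while the sum was 16 to 23.5, 22.5 to 26 and 18.3 to 23.9 FPKM.

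Over all tested genes, the median difference was 0.27 between NUP98-NSD1 and NRASG12D cells and 0.23 between NUP98-NSD1+NRASG12D and NRASG12D cells. Relative to these medians, Mapk13 stood at 1.05 and 3.47, Mapk14 at 0.63 and 0.60, Mapk6 at 0.36 and 0.89 and Mapk8 at 0.68 and 1.09. Mapk3 was then at -0.27 and -0.15 and Mapk9 at -0.15 and -0.55. In NUP98-NSD1+NRASG12D cells relative to NUP98-NSD1 the median was -0.06. The plot of differences sets each member against these medians.

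**Figure D3:**
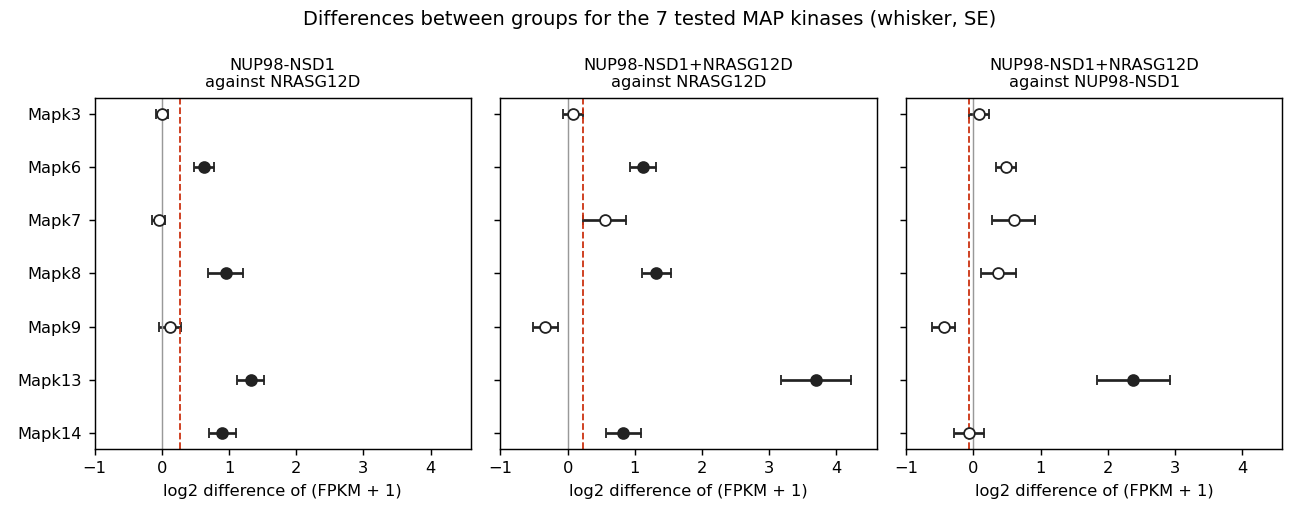
Differences on the log2(FPKM + 1) scale with their SE for the 7 tested MAP kinases in the 3 comparisons (6 libraries each); filled points passed the limma test at an adjusted p of 0.05, the dashed line is the median of the 13493 tested genes and the grey line is 0. Mapk13 is farthest to the right in each panel, at 1.32, 3.70 and 2.38.

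Set against all tested genes, these counts are read as follows. In NUP98-NSD1 against NRASG12D cells, 4 of the 7 tested members were higher past the threshold and 0 lower (also 0 lower at an unadjusted p under 0.05), where 42.2% of all tested genes were higher and 9.98% lower. After median-ratio scaling the members split into 2 higher and 2 lower, and all genes into 3059 higher and 3146 lower in place of 5689 and 1347. In the NUP98-NSD1+NRASG12D comparison with NRASG12D, the same 4 genes were higher and 0 lower, again also 0 lower at an unadjusted p under 0.05, with 24.2% higher and 14.1% lower among all. With that scaling 3 members were higher and 1 lower, and all genes split into 2665 higher and 2574 lower in place of 3266 and 1907. In NUP98-NSD1+NRASG12D against NUP98-NSD1 cells, Mapk13 alone was higher and 0 were lower by limma (Mapk6 and Mapk13 higher and Mapk9 lower at an unadjusted p under 0.05), where 2.3% of all genes were higher and 6.31% lower. Groups did not overlap in 4, 4 and 3 of the 7 members, against 64.2, 58.6 and 31.4% of all tested genes. The median difference of the 7 was 0.63, 0.83 and 0.37 in these comparisons.

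Other genes of the cascades were taken from lists by role, 77 genes in all, of which 61 were tested. Of these, 15 were higher and 14 lower in NUP98-NSD1 cells against NRASG12D, beside 42.2 and 9.98% of all tested genes. With NUP98-NSD1+NRASG12D against NRASG12D, 12 were higher and 13 lower, beside 24.2 and 14.1% of all. In NUP98-NSD1+NRASG12D cells relative to NUP98-NSD1, 3 were higher and 2 lower, beside 2.3 and 6.31%. Their median differences were 0.08, 0.05 and -0.09. After median-ratio scaling the first 2 splits were 9 higher and 23 lower, and 10 higher and 14 lower. The comparisons share groups, so a gene's values in 2 of them are not independent.

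Among the 7 MAP2K genes, whose products phosphorylate the MAP kinases, Map2k1 (MEK1, which activates ERK1) passed the test in all 3 comparisons. It was listed at 17.1, 23.7 and 19.3 FPKM in NRASG12D replicates, 40, 35.3 and 29.9 in NUP98-NSD1 replicates and 70.6, 70.9 and 84 in NUP98-NSD1+NRASG12D replicates, with no overlap. Its differences were 0.78 ± 0.15 and 1.86 ± 0.17 against NRASG12D cells (limma adjusted p = 0.0056 and 0.000349) and 1.08 ± 0.17 in NUP98-NSD1+NRASG12D cells relative to NUP98-NSD1 (adjusted p = 0.014). The last call was lost without NUP98-NSD1 replicate 2 or 3 (adjusted p up to 0.0741). Map2k3 (MKK3, which activates p38 kinases) was lower in NUP98-NSD1+NRASG12D cells, at 47.8 to 51.3 FPKM, than in NRASG12D cells at 78.6 to 86.8 and NUP98-NSD1 cells at 72.9 to 85.5, by -0.75 ± 0.13 (adjusted p = 0.00454) and -0.65 ± 0.14 (adjusted p = 0.0378). The second Map2k3 call was lost in 5 of 6 fits that left out a library, all but that without NUP98-NSD1+NRASG12D replicate 1 (adjusted p up to 0.159). Map2k6 (MKK6), the other main p38 activator, ran from 0.899 to 4.11 FPKM and did not pass in any comparison. In NUP98-NSD1 against NRASG12D cells, Map2k2, Map2k4, Map2k5 and Map2k7 were also higher, by 0.27 to 0.34, about the median of all genes, and none of these 4 passed after median-ratio scaling.

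Among the 24 MAP3K genes, 18 were tested. Of these, 3 were higher and 3 lower in NUP98-NSD1 cells against NRASG12D, 4 higher and 6 lower with NUP98-NSD1+NRASG12D against NRASG12D, and Map3k7 alone, lower, in NUP98-NSD1+NRASG12D cells against NUP98-NSD1. Median-ratio scaling raised the lower calls of the first comparison to 9, while those of all tested genes rose from 1347 to 3146. Without that scaling, 42.2% of all tested genes were higher and 9.98% lower in the first comparison. The shares were 24.2 and 14.1% in the second and 2.3 and 6.31% in the third. Map3k1 (MEKK1, upstream of JNK) was listed at 0.361 to 0.569 FPKM in NRASG12D libraries, 1.88 to 3.66 in NUP98-NSD1 libraries and 4.39 to 7.26 in NUP98-NSD1+NRASG12D libraries, higher than in NRASG12D cells by 1.26 ± 0.20 and 2.26 ± 0.21 (limma adjusted p = 0.00284 and 0.000413). With NRASG12D libraries all under 1 FPKM, Map3k1 passed the filter only through the other groups. Map3k7 (TAK1, which acts on p38 and JNK through their MAP2Ks) went the other way. It was at 9.29, 7.17 and 10.7 FPKM in NRASG12D replicates, 5.74, 6.31 and 6.91 in NUP98-NSD1 replicates and 1.75, 2.36 and 2.18 in NUP98-NSD1+NRASG12D replicates, with no overlap. Its differences were -0.45 ± 0.15, -1.69 ± 0.20 and -1.24 ± 0.17 in the 3 comparisons (adjusted p = 0.0428, 0.000918 and 0.0102). The first Map3k7 call held only without NRASG12D replicate 2 or NUP98-NSD1 replicate 3 among 6 fits that left out a library (adjusted p up to 0.129), and the third was lost without NUP98-NSD1 replicate 2 or 3 (adjusted p up to 0.0544). Of the TAO kinases, which act towards p38, Taok3 was lower in NUP98-NSD1 cells by -0.45 (adjusted p = 0.0067) and Taok2 in NUP98-NSD1+NRASG12D cells by -1.18 (adjusted p = 0.00311), both against NRASG12D.

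Of the 10 scaffold genes, whose products hold cascade kinases together, 7 were tested. None was higher past the threshold, 3 were lower in NUP98-NSD1 and 2 in NUP98-NSD1+NRASG12D than in NRASG12D cells, and 0 passed between the latter, where Ksr1 alone had an unadjusted limma p under 0.05. Among all tested genes 42.2% were higher and 9.98% lower in NUP98-NSD1 against NRASG12D cells. For NUP98-NSD1+NRASG12D against NRASG12D cells these shares were 24.2 and 14.1%, and against NUP98-NSD1 cells 2.3 and 6.31%. In the single fit of 9 libraries the 3 became 1, and the 2 became 1 in 5 of 6 fits that left out a library and 3 without NUP98-NSD1+NRASG12D replicate 2. Ksr1, a scaffold of the ERK cascade, was listed at 3.94 to 4.55, 1.85 to 1.97 and 0.689 to 1.13 FPKM, lower than in NRASG12D cells by -0.82 ± 0.11 and -1.40 ± 0.17 (limma adjusted p = 0.00171 and 0.00113). The JNK scaffold Mapk8ip3 was lower in NUP98-NSD1+NRASG12D than in NRASG12D cells by -0.87 ± 0.26 (adjusted p = 0.0381). That call held in 1 of 6 fits that left out a library, that without NUP98-NSD1+NRASG12D replicate 2 (adjusted p up to 0.118). Mapk8ip3 was also called lower in NUP98-NSD1 cells, at 7.54 to 8.9 FPKM against 11.8 to 13.1 in NRASG12D libraries. Spag9, another JNK scaffold, was lower by -0.50 ± 0.10 in NUP98-NSD1 cells (adjusted p = 0.00668).

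Of the 11 kinases that MAP kinases activate, 10 were tested. Mapkapk2 and Mapkapk3 (MK2 and MK3, substrates of p38) were higher and Rps6ka2 (an RSK kinase, a substrate of ERK) was lower than in NRASG12D cells in both other groups. Mapkapk2 was listed at 4.86, 4.99 and 5.17 FPKM in NRASG12D replicates, 17, 12.3 and 6.29 in NUP98-NSD1 replicates and 23.6, 15.7 and 20.3 in NUP98-NSD1+NRASG12D replicates, differences of 1.01 ± 0.30 and 1.78 ± 0.18 (limma adjusted p = 0.0272 and 0.000575). The first Mapkapk2 call was lost in 5 of 6 fits that left out a library, all but that without NUP98-NSD1 replicate 3 (adjusted p up to 0.0876). Mapkapk3 differed by 1.11 ± 0.22 and 1.56 ± 0.22 (adjusted p = 0.00638 and 0.00203). Rps6ka2 was at 3.69 to 12, 1.69 to 3.17 and 0.434 to 2.01 FPKM, lower by -1.37 ± 0.37 and -2.00 ± 0.43 (adjusted p = 0.0186 and 0.0112). Its first call was lost without NRASG12D replicate 3 or NUP98-NSD1 replicate 1 or 2 (adjusted p up to 0.0672). Mknk1, an ERK and p38 substrate, differed by -0.22 ± 0.07 in NUP98-NSD1 against NRASG12D cells (adjusted p = 0.0349), and that call too held among those 6 fits only without NUP98-NSD1 replicate 3 (adjusted p up to 0.105). None of the 10 passed in NUP98-NSD1+NRASG12D cells relative to NUP98-NSD1, and 1, Rps6ka5, had an unadjusted limma p under 0.05, lower. Among all tested genes only 2.3% were higher and 6.31% lower in this comparison, so a count of 0 among 10 says little of these kinases.

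All 7 transcription factor genes of the list were tested. Mef2c, a target of p38 and ERK5, had the largest differences of the list. It was listed at 0.0484 to 0.168 FPKM in NRASG12D libraries, 6.84 to 20.6 in NUP98-NSD1 libraries and 21.7 to 46.3 in NUP98-NSD1+NRASG12D libraries, higher by 3.71 ± 0.35 and 4.99 ± 0.29 (limma adjusted p = 0.000641 and 7.73e-05). Mef2c too passed the filter only through the groups in which it was high. Elk3, an ERK target of the ETS family, was higher in NUP98-NSD1+NRASG12D cells by 1.25 ± 0.19 against NRASG12D (adjusted p = 0.00291) and 0.88 ± 0.20 against NUP98-NSD1 cells (adjusted p = 0.0464). The second Elk3 call was lost in 5 of 6 fits that left out a library, all but that without NUP98-NSD1+NRASG12D replicate 1 (adjusted p up to 0.178). Elk4 was lower than in NRASG12D cells by -0.37 ± 0.13 and -1.11 ± 0.22 (adjusted p = 0.0415 and 0.0077), and Elk1 by -0.35 ± 0.11 in NUP98-NSD1 cells (adjusted p = 0.0327). In NUP98-NSD1 cells the calls of Elk4 and Elk1 each held in 1 of 6 such fits, that without NUP98-NSD1 replicate 3 (adjusted p up to 0.137 and 0.109). Atf2, a p38 and JNK target, was higher in NUP98-NSD1 than in NRASG12D cells by 0.32 ± 0.08 (adjusted p = 0.0179), but its difference turned to below 0 with median-ratio scaling and the call held in 2 of 6 fits that left out a library, those without NRASG12D replicate 2 or NUP98-NSD1 replicate 3 (adjusted p up to 0.0742).

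Of the 13 phosphatase genes, whose products switch MAP kinases off, 10 were tested, and they moved both ways. Dusp1, which removes phosphate mainly from p38 and JNK, was listed at 4.43 to 6.72 FPKM in NRASG12D libraries, 34 to 50.6 in NUP98-NSD1 libraries and 27.2 to 75.3 in NUP98-NSD1+NRASG12D libraries, higher by 2.68 ± 0.18 and 3.06 ± 0.39 (limma adjusted p = 0.000184 and 0.00131). Dusp4 went from 42.9 to 64.6 FPKM down to 18.4 to 24.8 and 2.18 to 16.5, lower by -1.25 ± 0.17 and -3.04 ± 0.58 (adjusted p = 0.00191 and 0.00701). Ptpn7, a phosphatase of blood cells that acts on ERK and p38, was lower in NUP98-NSD1+NRASG12D than in NRASG12D cells by -0.74 ± 0.13 (adjusted p = 0.00496). It was also called lower in NUP98-NSD1 cells, at 123 to 128 FPKM against 159 to 167 in NRASG12D libraries. Dusp6, which acts on ERK, was lower in NUP98-NSD1 cells by -0.70 ± 0.13 (adjusted p = 0.0052) and spanned 24.8 to 131 FPKM in NUP98-NSD1+NRASG12D cells. Dusp2 was higher in NUP98-NSD1 cells by 1.65 ± 0.20 (adjusted p = 0.00128), with all NRASG12D libraries under 1 FPKM. Dusp7, another ERK phosphatase, was higher in NUP98-NSD1+NRASG12D cells by 1.03 ± 0.19 against NRASG12D (adjusted p = 0.0064) and 0.96 ± 0.22 against NUP98-NSD1 cells (adjusted p = 0.0466), but the second of these calls held in 1 of 6 fits that left out a library, that without NUP98-NSD1+NRASG12D replicate 1 (adjusted p up to 0.165). The plot of cascade genes by role covers both comparisons with NRASG12D. In each, MAP3K, downstream kinase, transcription factor and phosphatase genes were called on both sides of 0, and scaffold genes only below 0. The scaffold calls were 3 and 2 of 7 tested genes. Among all tested genes 9.98 and 14.1% were lower and 42.2 and 24.2% higher in these comparisons.

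**Figure D4:**
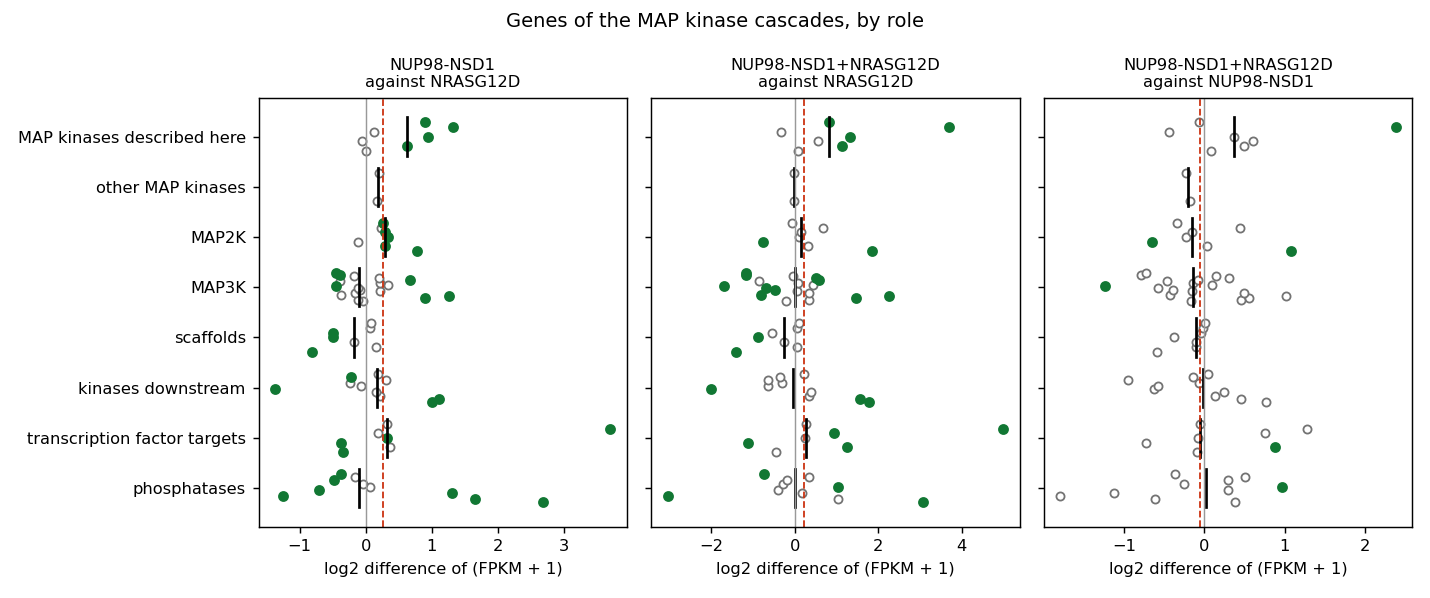
Differences on the log2(FPKM + 1) scale of the tested genes in each role list (rows), in the 3 comparisons; filled points passed the limma test at an adjusted p of 0.05, short bars are list medians, the dashed line is the median of all tested genes, and the axes differ between panels. Among the 18 tested MAP3K genes 6 passed in the first panel, 10 in the next and 1 in the last, beside 7036, 5173 and 1162 of the 13493 tested genes.

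The genes most like each member in pattern were found by Pearson's r of log2(FPKM + 1) over the 9 libraries, as a description that groups and libraries shape in common. Prdx5, a peroxiredoxin, was most like Mapk13 (r = 0.999), at 136 to 152 FPKM in NRASG12D libraries, 205 to 290 in NUP98-NSD1 libraries and 471 to 1193 in NUP98-NSD1+NRASG12D libraries. Matn2 (r = 0.995), the aminopeptidase gene Npepps (r = 0.995), Olfml2b (r = 0.994) and Gm40304 (r = 0.994) followed, each highest in NUP98-NSD1+NRASG12D replicate 3. Mapk6 was most like Tpst2 (r = 0.995) and Vsir (r = 0.992), and Mapk8 was most like Acsl3 (r = 0.994) and Slc35b1 (r = 0.992). For Mapk14 these were Prkci and Hnrnpab (r = 0.973 each), for Mapk9 Eif2ak3 (r = 0.970) and Plpp6 (r = 0.957), for Mapk7 Tbc1d2 (r = 0.981) and Agfg2 (r = 0.980), and for Mapk3 Chmp2a (r = 0.940) and 1110008P14Rik (r = 0.921). Among the members, Mapk6 followed both Mapk8 and Mapk13 (r = 0.93 each), whereas Mapk13 and Mapk14, neighbours on the chromosome, had an r of 0.51.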

How the data were processed

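RNA of sorted and expanded cells was sequenced as paired 50-base reads. Per the submitters' processing notes and the methods, the authors aligned reads with STAR 2.7.2a to GRCm38.p6 with the GENCODE M22 annotation, ran Bowtie2 as a comparison, and quantified genes with Cufflinks 2.2.1. The authors deposited FPKM for each gene in each library, with no further scaling between libraries stated. Strand-specific counting is not given in the sources used here. The authors' DESeq2 test needs counts and was not repeated.

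Groups follow the sample labels. Genes with 1 FPKM or more in at least 3 of 9 libraries were tested as log2(FPKM + 1) with limma 3.58.1 in R 4.3.3 (eBayes with trend), on the 6 libraries of a comparison, adjusted over 13493 genes; the test was also run on simulated data. Depth was estimated from the steps of low FPKM in 3386 genes with 1 transcript; 82.2 to 85.8% of low values lay within 0.05 of a whole step. Floors of 3 fragments cover counting error only. Coordinates count from 1. Sequences come from GENCODE M21 transcripts and RefSeq promoters; Mapk3 has no promoter entry there. The members and lists were chosen with earlier results of these data known. Besides the 9 members, named cascade genes are the 2 largest rises and 2 largest falls per list and comparison among called genes whose groups did not overlap, Nras, the marker lists, and the 5 genes most like Mapk13 and 2 most like each other member. The study named Mapk13 from these samples. Rps6ka5, Map2k2, Map2k5, Map2k6, Map2k7, Mfap4 and Gm49037 were named after their values were seen. Some genes that this rule would name are not reported here.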

Additional observations from a re-analysis of the deposited data

How the results depend on the processing

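Each difference was recomputed with a pseudocount of 0.1, without the filter on low values, with median-ratio scaling, quantile normalization or rescaling to TPM, in a single fit of all 9 libraries, with array weights, with a replicate block, and without each library in turn. The Mapk13 calls against NRASG12D were lost once: in the single fit of 9 libraries the NUP98-NSD1 difference stayed at 1.32 with an adjusted p of 0.0714. Its call between NUP98-NSD1+NRASG12D and NUP98-NSD1 was lost without the filter (2.38, adjusted p = 0.24), with median-ratio scaling (2.44, adjusted p = 0.0567) and with the replicate block (2.38, adjusted p = 0.0535). Leaving out 1 library gave 1.73 to 2.73 (adjusted p from 0.0333 to 0.157).

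The count of members past the threshold in NUP98-NSD1 against NRASG12D fell from 4 to 1 without the filter. In NUP98-NSD1+NRASG12D against NUP98-NSD1 it went from 1 to 0 without the filter, with median-ratio scaling or with the replicate block, to 3 with array weights (Mapk6, Mapk7 and Mapk13), and to between 0 and 2 without single libraries. The replicate numbers did not pair the libraries (correlations of same-numbered deviations from -0.1768 to 0.1602), and the block also lost Mapk14 in NUP98-NSD1+NRASG12D against NRASG12D (0.83, adjusted p = 0.0755). The count of cascade genes in NUP98-NSD1 against NRASG12D went from 29 to 18 without the filter, 13 in the single fit, and 17 to 36 without single libraries. In NUP98-NSD1+NRASG12D against NUP98-NSD1 it went from 5 to 3 with a pseudocount of 0.1, TPM or the replicate block, 1 without the filter, 2 with median-ratio scaling, 16 in the single fit, 20 with array weights, and 0 to 10 without single libraries. Counts over all genes moved as well. In NUP98-NSD1 against NRASG12D they fell from 7036 to 3065 in the single fit and to 4920 without the filter. Leaving out single libraries gave 4736 to 7948 there. In NUP98-NSD1+NRASG12D against NUP98-NSD1 they went from 1162 to 169 without the filter, 893 with median-ratio scaling, 2251 in the single fit and 3500 with array weights. Without single libraries they ran from 283 to 2509 in this comparison. The causes were not tested.

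Signs changed for values near 0 and for Atf2, which had been called. For NUP98-NSD1 against NRASG12D, Mapk3 was at -0.32 with median-ratio scaling and quantile normalization, -0.16 with TPM and -0.05 with array weights, and from -0.05 to 0.04 without single libraries. Mapk9 was at -0.20, -0.19 and -0.04 with those 3 scalings and from -0.04 to 0.24 without single libraries, Mapk7 from -0.10 to 0.02, and Atf2 at -0.0035 and -0.0037 with median-ratio scaling and quantile normalization. For NUP98-NSD1+NRASG12D against NRASG12D, Mapk3 was at -0.15, -0.20 and -0.16 with the 3 scalings and from -0.02 to 0.14 without single libraries. Against NUP98-NSD1, Mapk3 ran from -0.02 to 0.14 and Mapk14 from -0.27 to 0.04 without single libraries, and Mapk14 was at 0.02 with median-ratio scaling. FPKM below about 0.1 rest on a few fragments, which limits Mapk12, and Mapk13 in NRASG12D cells.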
